A study of Mus musculus with 29 samples.

Results

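The levels of 10 immediate-early response genes were followed through heart failure (HF) and recovery in mouse hearts: Fos, Fosb, Jun, Junb, Egr1, Egr3, Atf3, Ier2, Nr4a1 and Dusp1. They were taken by gene symbol, and all 10 were found among the 29,955 genes of the expression table and passed the filter on low values, as did 12,759 genes in all. Values are in FPKM, in which fragments are divided by transcript length and by the number of mapped fragments per library. Poly(A) RNA of 24 libraries of male C57BL/6J mice, 3 months old at the start, was used. HF was induced over 5 weeks with drinking water that held L-NAME (0.3 mg/ml), which blocks nitric oxide synthases, and NaCl (1%), and with angiotensin II at 0.7 mg/kg/day from an osmotic pump placed after week 1. The groups were HF week 3 (2 libraries, with the agents still being given), HF week 5 (3 libraries, at the end of induction), and Recovery weeks 7, 9, 11, 13 and 19 (2, 2, 3, 2 and 5 libraries, after the agents had ended). Control week 19 (5 libraries) held untreated mice matched in age to Recovery week 19, and served as the control for every group, so that its comparison with HF also holds any difference by age. The labels give whole ventricle or whole heart as the tissue, whereas the methods describe frozen apical portions, and neither states how long a heart waited before it was frozen. Nothing ties a library to one named animal, so that the p-values measure the spread between these libraries.

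Immediate-early genes are switched on within minutes of a stimulus by transcription factors that are already present in the cell, and their transcripts are short-lived. Fos and Jun proteins pair through leucine zippers into AP-1, Egr proteins bind GC-rich sites through zinc fingers, and Dusp1 ends the signal by removing phosphate from MAP kinases. In the heart they are known to respond to stretch, pressure load and angiotensin II, and in many tissues also to dissection and handling.

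The promoters show one of the letter patterns that these genes are known for, the core of the cAMP response element (CRE) to which CREB and ATF proteins bind. RefSeq (GRCm38.p6, another build than that of the expression values) held an entry for 7 of the 10 genes, all but Egr1, Egr3 and Ier2, and the 250 bases before the gene start were searched on both strands. The core TGACG was found in 6 of the 7, against 17.8% of the 32,851 promoters searched, and Jun was the exception. Below, Fos (chr12:85473640-85473889, plus strand) and Nr4a1 (chr15:101266596-101266845, plus strand) are shown as genes that varied widely between libraries, Dusp1 (chr17:26508473-26508722, minus strand) for its full CRE, and Jun (chr4:95052223-95052472, minus strand) as the promoter without a match. Each is written 5′ to 3′ in the direction of the gene, and capitals mark TGACG or its reverse complement CGTCA.
Fos: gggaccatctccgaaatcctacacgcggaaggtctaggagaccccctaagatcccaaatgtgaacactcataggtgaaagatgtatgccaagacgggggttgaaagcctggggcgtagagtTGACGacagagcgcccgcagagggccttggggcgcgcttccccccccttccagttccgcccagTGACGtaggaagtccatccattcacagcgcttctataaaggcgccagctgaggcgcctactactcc
Nr4a1: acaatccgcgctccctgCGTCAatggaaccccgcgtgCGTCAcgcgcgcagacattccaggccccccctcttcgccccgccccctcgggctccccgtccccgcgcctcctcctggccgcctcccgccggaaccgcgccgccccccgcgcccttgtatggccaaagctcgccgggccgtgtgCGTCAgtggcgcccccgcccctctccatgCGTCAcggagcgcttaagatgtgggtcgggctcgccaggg
Dusp1: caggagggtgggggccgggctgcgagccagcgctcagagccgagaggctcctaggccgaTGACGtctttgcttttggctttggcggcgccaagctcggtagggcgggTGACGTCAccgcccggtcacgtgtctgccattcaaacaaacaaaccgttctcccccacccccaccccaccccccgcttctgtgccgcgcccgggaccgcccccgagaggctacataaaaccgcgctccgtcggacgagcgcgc
Jun: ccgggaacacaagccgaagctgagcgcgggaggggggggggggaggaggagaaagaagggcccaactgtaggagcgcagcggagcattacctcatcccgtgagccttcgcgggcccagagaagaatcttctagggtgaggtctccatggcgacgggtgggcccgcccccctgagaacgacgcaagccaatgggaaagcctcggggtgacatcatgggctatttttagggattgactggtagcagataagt
Fos held the core 2 times, Nr4a1 4 times and Dusp1 3 times. In Dusp1, 2 of these matches overlap in the full element TGACGTCA, which 1 of the 7 promoters and 1.55% of all promoters held. Fosb, Junb and Atf3 held 1 core each. The Egr site GCGGGGGCG was found in Fosb and Nr4a1, against 2.57% of all promoters. The AP-1 site TGANTCA and the CArG box, the site of serum response factor, were in 0 of the 7, against 6.75% and 1.47% of all promoters. These are matches of letters in a short window and not measurements of binding. A near match is not counted, such as TGACATCA in Jun, which differs from TGACGTCA in 1 base.

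The libraries differed in ways that touch these genes' values. Of the 24 libraries, 23 had 16,339 to 18,091 genes above 0, and HF week 3 library 1 had 12,816 and a correlation of 0.885 with the other library of its group. HF week 5 library 1 had atrial genes far above the other libraries of its group, with Myl7, an atrial myosin light chain, at 18,388 FPKM against 152 and 6.16. The cardiomyocyte marker Myh6 was listed at 0 in every library of weeks 5 and 19 and above 0 in all other libraries. In comparisons of weeks 5 and 19 with HF week 3 or Recovery weeks 7 to 13, the week and this feature of the table cannot be told apart. The sum of the other 8 cardiomyocyte markers was 20,482 to 37,461 FPKM over all libraries. It was 20,482 to 24,186 FPKM in HF week 3 and 28,804 to 31,897 FPKM in Control week 19. The tissue is a mixture of cells, in which fewer cells of a type and less RNA per cell cannot be told apart.

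The main feature of the immediate-early genes was how far libraries of one group lay apart. Fos, the founding member of AP-1, was at 5.68, 47.3, 15.1, 1.79 and 1.28 FPKM in libraries 1 to 5 of Control week 19. In Recovery week 19 its values were 19.5, 45.4, 0.787, 2.02 and 2.04 FPKM. The highest library was thus 37.1-fold above the lowest in the controls and 57.7-fold in recovery, and the libraries of either group spanned nearly the whole range of the other. In HF week 5 Fos was at 13.7, 1.22 and 3.65 FPKM, again with one high library and 2 lower ones. The libraries of Recovery week 9 were close, at 2.03 and 2.00 FPKM.

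**Figure D1:**
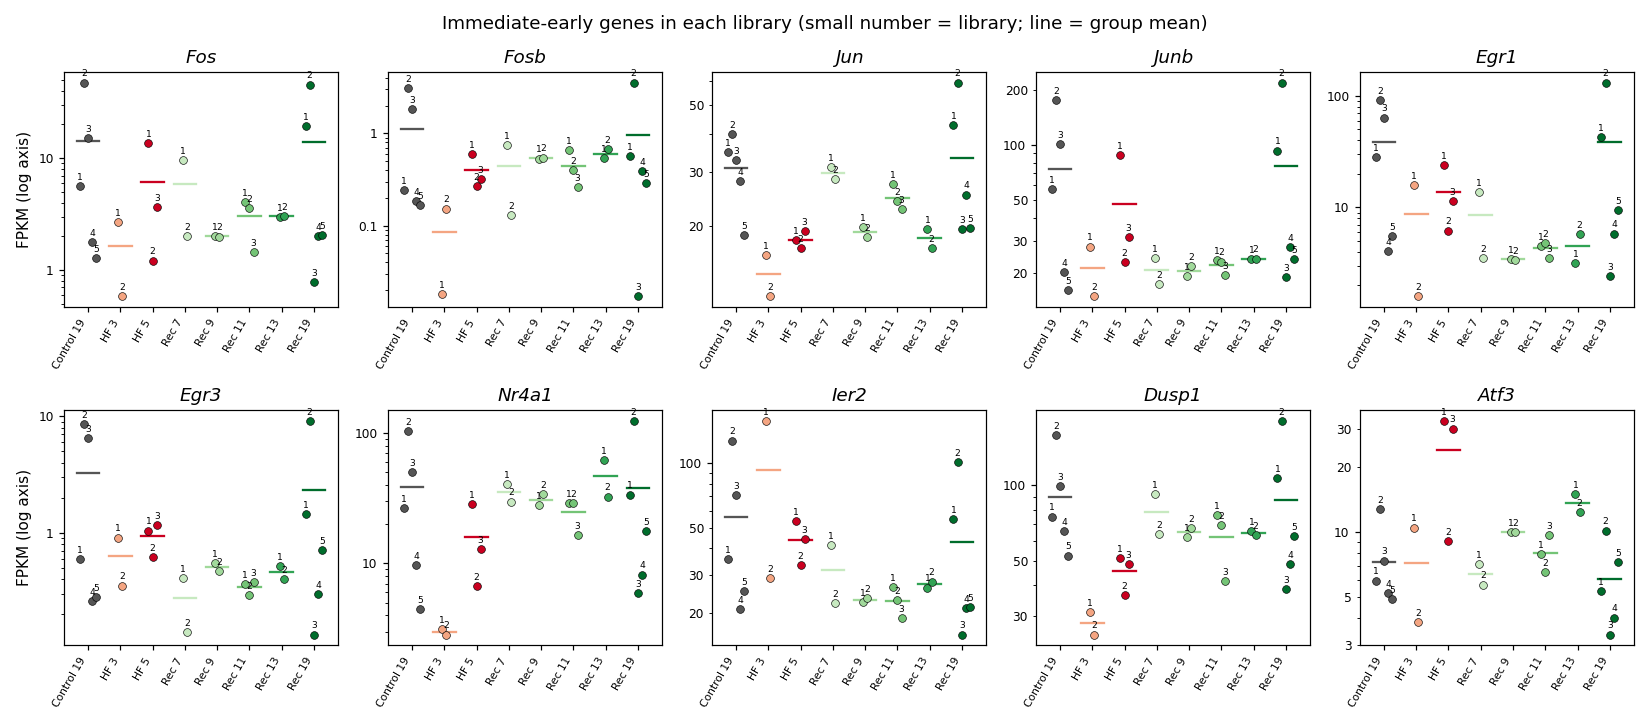
FPKM of the 10 immediate-early genes in each of the 24 libraries, on log axes with a range of their own for each gene. Rec stands for Recovery, the number after each group name is the study week, the small number beside each point is the library, and the line is the group mean. Library 2 is the highest point in Control week 19 and in Recovery week 19 in all 10 panels, and in the panel of Atf3 HF week 5 libraries 1 and 3 (32.7 and 30.1 FPKM) are above all other points.

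The other AP-1 genes differed in level and in spread. Fosb, a close relative of Fos, was the lowest of the 10 at a mean of 0.675 FPKM over all libraries. It was at 0.244, 3.11, 1.83, 0.187 and 0.167 FPKM in Control week 19, 0.603, 0.271 and 0.318 FPKM in HF week 5, and 0.573, 3.56, 0.0171, 0.387 and 0.288 FPKM in Recovery week 19. At such levels a fold change on the log2(FPKM + 0.5) scale understates the ratio of the FPKM. Junb, an AP-1 subunit that often acts against Jun, was at 57.1, 175, 101, 20.1 and 16.1 FPKM in Control week 19. In HF week 5 it was at 87.5, 22.9 and 31.3 FPKM, and in Recovery week 19 at 93.0, 218, 18.9, 27.6 and 23.7 FPKM. Between these time points, in Recovery weeks 7 to 13, Junb kept within 17.5 to 24.0 FPKM in all 9 libraries. Jun, the subunit that pairs with itself as well as with Fos, varied least: 35.1, 40.1, 32.8, 28.0 and 18.7 FPKM in Control week 19 and 42.9, 59.1, 19.6, 25.4 and 19.7 FPKM in Recovery week 19. In HF week 5 the libraries were within 1.13-fold of each other, at 18.0, 16.9 and 19.2 FPKM.

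The zinc finger genes followed Fos. Egr1 was at 28.1, 91.8, 63.9, 4.10 and 5.55 FPKM in Control week 19 and at 42.3, 132, 2.44, 5.84 and 9.41 FPKM in Recovery week 19. The HF week 5 libraries were at 24.0, 6.20 and 11.4 FPKM, inside the range of both. Recovery weeks 9, 11 and 13 were low and even, with Egr1 at 3.15 to 5.79 FPKM in all 7 libraries. Egr3 was at 0.592, 8.62, 6.56, 0.260 and 0.281 FPKM in Control week 19, at 1.05, 0.620 and 1.17 FPKM in HF week 5, and at 1.45, 9.17, 0.133, 0.296 and 0.713 FPKM in Recovery week 19. For both genes the 2 highest control libraries were libraries 2 and 3, and the 2 highest of Recovery week 19 were libraries 2 and 1.

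Nr4a1, an orphan nuclear receptor, was at 26.5, 103, 49.9, 9.72 and 4.47 FPKM in Control week 19 and at 33.8, 124, 5.94, 8.23 and 17.7 FPKM in Recovery week 19. It was at 28.7, 6.67 and 12.8 FPKM in HF week 5 and at 3.17 and 2.86 FPKM in HF week 3, the lowest values of the 24 libraries. Its means in Recovery weeks 7, 9, 11 and 13 were 35.2 ± 7.61 (SD, n = 2), 30.9 ± 4.25 (SD, n = 2), 24.8 ± 7.29 (SD, n = 3) and 47.2 ± 20.7 (SD, n = 2) FPKM. In weeks 9 to 13 Nr4a1 thus did not share the low values of Egr1. Ier2, which encodes a small nuclear protein, was at 35.7, 128, 71.4, 20.7 and 25.1 FPKM in Control week 19, at 53.6, 33.4 and 44.1 FPKM in HF week 5, and at 55.0, 101, 15.8, 21.0 and 21.2 FPKM in Recovery week 19. Its highest value of all, 158 FPKM, was in HF week 3 library 1, the library with few genes above 0, against 28.9 FPKM in the other library of that group.

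Dusp1, the phosphatase, had the highest mean of the 10 over all libraries, 70.1 FPKM. It was at 75.1, 159, 99.1, 65.5 and 52.4 FPKM in Control week 19, at 51.4, 36.3 and 48.6 FPKM in HF week 5, and at 107, 181, 38.5, 48.4 and 62.7 FPKM in Recovery week 19. All HF week 5 libraries were below all control libraries, though the highest of the former and the lowest of the latter were 51.4 and 52.4 FPKM. Atf3, a stress-induced repressor and activator of the ATF/CREB family, was at 5.97, 12.8, 7.39, 5.24 and 4.91 FPKM in Control week 19. It was at 32.7, 9.07 and 30.1 FPKM in HF week 5 and at 5.33, 10.2, 3.36, 4.03 and 7.30 FPKM in Recovery week 19. Libraries 1 and 3 of HF week 5 thus lay above every library of the other 7 groups, while library 2 lay within their range.

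The order of the group means was not the same for each gene. Atf3 had its highest mean in HF week 5 (24.0 ± 12.97 FPKM, SD, n = 3), followed by Recovery week 13 (13.7 ± 1.80, SD, n = 2) and Recovery week 9 (10.1 ± 0.00191, SD, n = 2), and its lowest in Recovery week 19 (6.04 ± 2.76, SD, n = 5). Jun was highest in Recovery week 19 (33.3 ± 17.3, SD, n = 5), Control week 19 (30.9 ± 8.12, SD, n = 5) and Recovery week 7 (29.9 ± 1.86, SD, n = 2), which lay within the spread of one another, and lowest in HF week 3 (13.9 ± 3.04, SD, n = 2). Dusp1 was highest in Control week 19 (90.1 ± 41.9, SD, n = 5) and Recovery week 19 (87.4 ± 58.4, SD, n = 5) and lowest in HF week 5 (45.4 ± 8.02, SD, n = 3) and HF week 3 (28.2 ± 4.05, SD, n = 2). For Fos the means were highest in Control week 19 (14.2 ± 19.3, SD, n = 5) and Recovery week 19 (14.0 ± 19.2, SD, n = 5), with SDs larger than the means themselves, and lowest in HF week 3 (1.64 ± 1.49, SD, n = 2). Egr1, Egr3 and Junb also had their 2 highest means in these groups, with Junb at 73.8 ± 65.9 (SD, n = 5) and 76.3 ± 85.0 FPKM (SD, n = 5).

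The spread within groups was compared with that of all 12,759 genes by the residual SD of log2(FPKM + 0.5) in a model with a mean for each group. Fos had a residual SD of 1.66, at percentile 99.84 of all genes, and Egr1 one of 1.64, at percentile 99.83. Nr4a1 (1.298), Egr3 (1.20), Junb (1.12), Ier2 (0.91) and Fosb (0.84) were at percentiles 97.9 to 99.61. Atf3 and Dusp1 followed at 0.59 each, and Jun at 0.42 was at percentile 83.19. The median gene had a residual SD of 0.26 and the 90th percentile was 0.51, so that 9 of the 10 were above the latter. Differences between groups made up 15.1% of the variance of Fosb, 16.4% of that of Fos and 59.4% of that of Atf3, against a median of 52.2% over all genes.

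**Figure D2:**
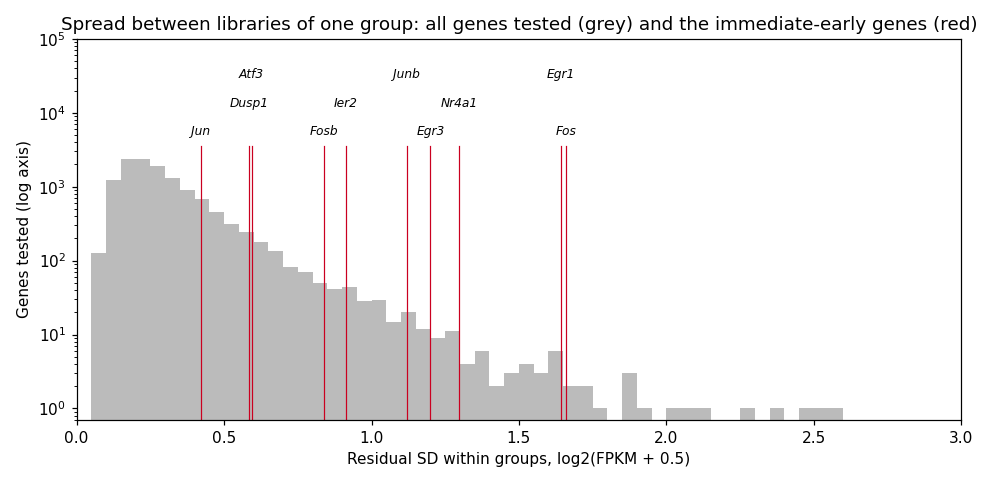
Residual SD within groups of log2(FPKM + 0.5), on the horizontal axis, for all 12,759 genes tested (grey bars, number of genes on a log axis) and for the 10 immediate-early genes (red lines). Jun at 0.42 lies in the bulk of the genes and Fos at 1.66 and Egr1 at 1.64 in the far tail.

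The same libraries were high for nearly all of the genes. In Control week 19, library 2 was the highest of its group for 10 of the 10 genes, and in Recovery week 19 library 2 was also the highest for 10 of 10. Library 3 of Recovery week 19 was the lowest for 10 of 10, and in Control week 19 library 5 was the lowest for 7 and library 4 for 3. Library 1 of HF week 5 was the highest for 8 genes and library 2 the lowest for 10. Library 1 of Recovery week 7 was the highest for 10 genes and library 1 of HF week 3 for 9. Recovery weeks 9 and 13 had no such leader, with 4 against 6 and 5 against 5 genes. Among all 24 libraries, library 2 of Control week 19 was among the 5 highest for 10 genes, library 3 of that group for 9, and libraries 2 and 1 of Recovery week 19 for 9 and 7. High levels were thus found in untreated hearts and in recovered hearts alike, and no label of these libraries records what sets them apart.

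Correlations across the 24 libraries describe how closely each gene followed the other 9, with libraries of one group sharing their treatment. Pearson's r with the mean of the other genes was 0.969 for Fos, 0.934 for Junb, 0.898 for Egr1, 0.885 for Egr3 and 0.877 for Fosb. It was 0.819 for Dusp1, 0.724 for Jun, 0.710 for Ier2 and 0.707 for Nr4a1. Atf3 had the lowest, 0.332. Once the group means were removed its r was 0.727, still the lowest, with the other 9 genes at 0.854 to 0.972. By Spearman's rank correlation Jun was the lowest at 0.483, followed by Atf3 at 0.530.

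Among all genes tested, those whose pattern was most like the mean of the 10 were Btg2 (r = 0.929), Cxcl1 (0.918), Cyr61 (0.879), Zfp36 (0.867), Egr2 (0.863), Errfi1 (0.808), Plk3 (0.798), Dnajb1 (0.739), Hspa1a (0.728) and Apold1 (0.719). Of these, 6 were on lists of other immediate-early genes and 2 on a list of heat shock genes. Without library 2 of Control week 19 and library 2 of Recovery week 19 the r was 0.436 to 0.857 over 22 libraries. Btg2, an antiproliferative gene, was at 13.5, 44.5, 25.1, 10.2 and 10.1 FPKM in Control week 19 and at 17.2, 49.6, 7.68, 7.98 and 10.1 FPKM in Recovery week 19. Cxcl1, a chemokine that attracts neutrophils, was at 4.52, 6.97, 6.27, 0.744 and 1.29 FPKM and at 5.11, 15.3, 1.12, 1.00 and 2.41 FPKM in the same groups. The high libraries were those that were high for Fos. Hspa1a, the inducible heat shock protein 70, was at 36.1, 38.6, 12.01, 3.58 and 4.73 FPKM in Control week 19, at 20.1, 58.0, 2.37, 8.31 and 4.98 FPKM in Recovery week 19, and at 3.43, 3.30 and 7.92 FPKM in HF week 5. Hspa1a and its near copy Hspa1b share sequence, so that reads may have been split between them. Hspa1a was thus high in libraries 1 and 2 of both groups of week 19, whereas in Recovery week 7 it was higher in library 2 (16.3 FPKM) than in library 1 (4.16 FPKM), the reverse of the immediate-early genes. Of the 8 heat shock genes, 5 were highest in library 2 of Control week 19 and 4 in library 2 of Recovery week 19. Library 1 of HF week 3, the highest for 9 of 10 immediate-early genes, was the highest for 6 of 8 heat shock genes. Library 3 of Recovery week 19, the lowest for 10 of 10, was the lowest for 6 of 8. Other libraries went the other way. Library 1 of HF week 5, the highest for 8 of 10 immediate-early genes, was the lowest for 5 of 8 heat shock genes. Library 1 of Recovery week 7, the highest for 10 of 10, was the lowest for 7 of 8. In Recovery weeks 9 and 13 library 1 was the highest for 8 of 8 heat shock genes. The part of tissue handling in these values was not tested.

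**Figure D3:**
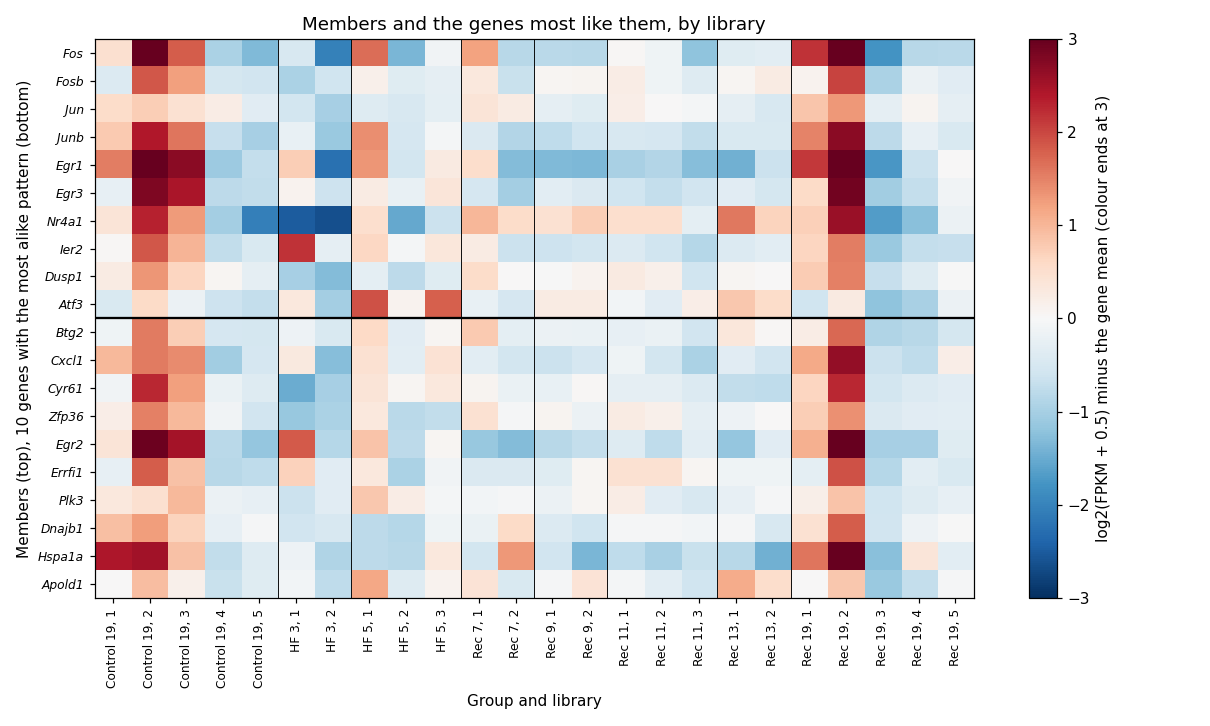
Heat map of log2(FPKM + 0.5) minus the mean of the gene over the 24 libraries, for the 10 immediate-early genes (top) and the 10 genes with the most alike pattern (bottom), with one column for each library named by group, week and library number. Red is above and blue below the mean of the gene, and colours end at 3. The columns of library 2 of Control week 19 and library 2 of Recovery week 19 are red in all rows.

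Against this spread, HF week 5 differed from Control week 19 in 1 of the 10 genes at an adjusted p under 0.05, compared with 24% of all genes tested in either direction and 11.6% called higher. Atf3 rose by 1.55 ± 0.40 (SE) on the log2 scale (limma, adjusted p = 0.00871), and its libraries overlapped those of the controls by library 2 alone. Without HF week 5 library 1 the log2 fold change of Atf3 was 1.23 with an adjusted p of 0.0820, and without library 3 it was 1.29 with an adjusted p of 0.0508, so that the call needed both. Summed markers of other cells moved with this comparison: 7 of 7 fibroblast markers were detected in every HF week 5 library, and their sum was 646, 330 and 570 FPKM in libraries 1 to 3 against 234 to 326 FPKM in the controls and 295 to 433 FPKM in Recovery week 19. The sum of 7 endothelial markers was 369 to 475 FPKM in HF week 5 against 257 to 327 FPKM in the controls and 267 to 292 FPKM in Recovery week 19, and that of 4 smooth muscle markers was 135 to 227 FPKM against 69.8 to 99.2 FPKM and 72.8 to 93.6 FPKM. Of the endothelial, fibroblast and smooth muscle markers none was at 0 in these 3 groups. The sum of 6 macrophage markers was 430, 234 and 333 FPKM in HF week 5 libraries 1 to 3 against 182 to 329 FPKM in the controls and 234 to 512 FPKM in Recovery week 19, so that libraries 1 and 3 were above every control. Within HF week 5 the fibroblast, endothelial and macrophage sums were higher in the 2 libraries with high Atf3 than in library 2. The smooth muscle sum was instead highest in library 2, at 227 FPKM against 159 and 135 FPKM in libraries 1 and 3. The fibroblast sum was higher still in HF week 3, at 692 and 681 FPKM with Atf3 at 10.5 and 3.84 FPKM, and in Recovery week 11 library 3 it was 632 FPKM with Atf3 at 9.70 FPKM. The sum of 5 atrial markers was 81734.5, 2515 and 2229 FPKM in HF week 5 libraries 1 to 3 against 89.6 to 349 FPKM in the controls. The part of these cells in the value of Atf3 was not tested.

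Dusp1 (-0.89 ± 0.39, adjusted p = 0.106) and Jun (-0.72 ± 0.29, adjusted p = 0.0728) missed the threshold and were under it at the unadjusted p, where 3 of the 10 genes passed against 36.5% of all genes. Dusp1 was the only 1 of the 10 whose groups did not overlap, against 29.5% of all genes in either direction and 14.7% lower.

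For the other 7 genes the data leave a wide range. The log2 fold changes in HF week 5 were -0.79 for Egr1, -0.74 for Nr4a1, -0.62 for Fos, -0.57 for Egr3, -0.48 for Fosb, -0.34 for Junb and -0.05 for Ier2, with adjusted p from 0.569 to 0.964 in limma. The 95% interval for Fos ran from -2.95 to 1.70 and that for Egr1 from -3.09 to 1.51, so that neither a fall nor a rise of 1 on the log2 scale was outside it. The sign for Fos and Junb turned without library 2 of Control week 19, to 0.06 and 0.10, and without library 2 of HF week 5, to 0.10 and 0.05. The median over the 10 genes was -0.59, against 0.04 over all genes, and 9 of 10 were below 0.

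**Figure D4:**
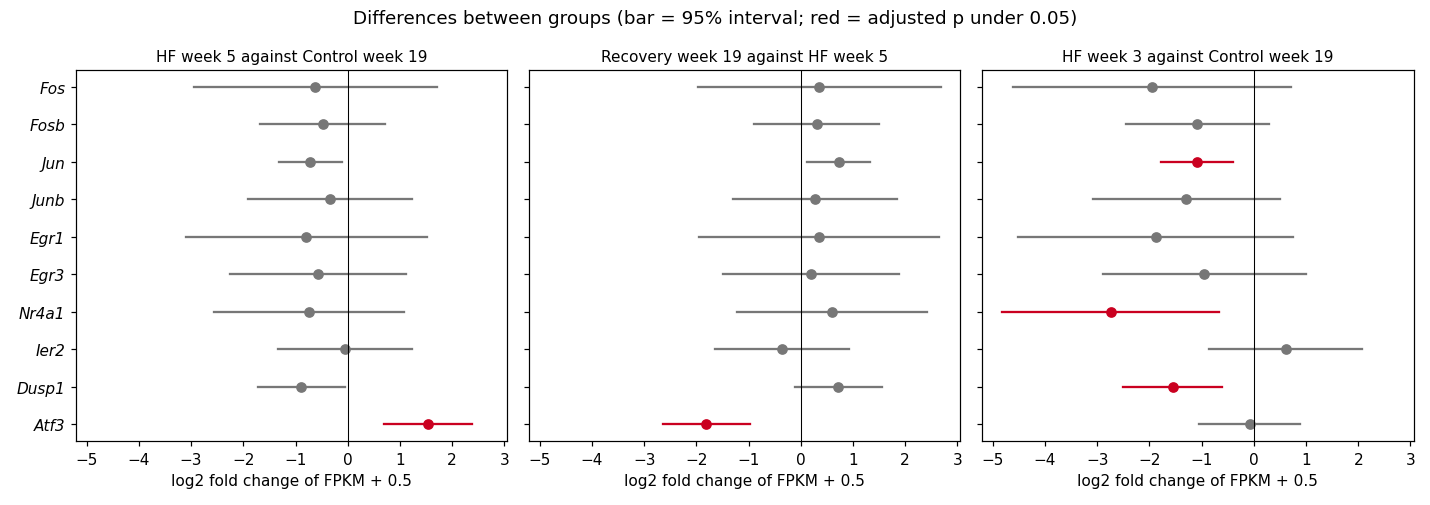
Log2 fold change of FPKM + 0.5 (points) with its 95% interval (bars) for each of the 10 genes in HF week 5 against Control week 19, Recovery week 19 against HF week 5 and HF week 3 against Control week 19. Red marks an adjusted p under 0.05, reached by Atf3 in the left and middle panels and by Jun, Nr4a1 and Dusp1 in the right panel, and the bars of Fos and Egr1 are the widest.

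From HF week 5 to Recovery week 19, Atf3 fell by 1.81 ± 0.40 (SE) on the log2 scale (limma, adjusted p = 0.00326), the 1 call among the 10 genes, against 24.2% of all genes in either direction and 12% called lower. Its mean went from 24.0 ± 12.97 (SD, n = 3) to 6.04 ± 2.76 FPKM (SD, n = 5), and the groups overlapped by HF library 2 and recovery library 2. The call held without any one library of either group, with adjusted p up to 0.0351 over the alternatives tried. Jun was higher in every Recovery week 19 library than in every HF week 5 library, the only 1 of the 10 without overlap, against 26.7% of all genes in either direction and 14.1% higher. Its log2 fold change was 0.73 ± 0.29 (adjusted p = 0.0688), and at the unadjusted p 2 of the 10 genes passed, Atf3 and Jun, against 36.8% of all genes. Recovery libraries 3 and 5 exceeded the highest HF library by little, at 19.6 and 19.7 against 19.2 FPKM. Dusp1 had a log2 fold change of 0.72 ± 0.39 (adjusted p = 0.192), and the remaining 7 genes were between -0.37 (Ier2) and 0.59 (Nr4a1) with adjusted p from 0.650 to 0.883. Both comparisons with HF week 5 use the same HF libraries, so that their values are not independent.

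Recovery week 19 against Control week 19 gave 0 calls among the 10 genes in limma, against 0.0235% of all genes, and 0 at an unadjusted p under 0.05, against 2.88%. No gene of the 10 was without overlap, against 1.17% of all genes. The log2 fold changes ran from -0.43 (Egr1) to 0.01 (Jun), with an adjusted p of 1 for each. Atf3 was at -0.26 with a 95% interval from -0.99 to 0.47 and Jun at 0.01 with one from -0.51 to 0.53, so that for these genes a difference of 1 was outside the interval. For Fos the interval was -2.28 to 1.75.

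Earlier in induction, HF week 3 was lower than Control week 19 in 3 of the 10 genes, against 27.6% of all genes called lower and 50.7% called in either direction. Dusp1 fell by 1.56 ± 0.45 (SE) on the log2 scale (limma, adjusted p = 0.00750), from 90.1 to 28.2 FPKM, with HF week 3 libraries at 31.1 and 25.4 FPKM. Nr4a1 fell by 2.74 ± 0.98 (adjusted p = 0.0261) and Jun fell by 1.10 ± 0.33 (adjusted p = 0.00919), the latter with libraries at 16.1 and 11.8 FPKM. These genes and Fosb were the 4 without overlap, all lower, against 23.9% of all genes without overlap and lower and 45.3% without overlap in either direction. At the unadjusted p the same 3 genes passed, against 57.1%. Without HF week 3 library 1, the library with few genes above 0, Dusp1 and Jun were still called and Nr4a1 was at -2.81 with an adjusted p of 0.117. Without library 2 the count was 1, with Jun at -0.88 (adjusted p = 0.0821) and Nr4a1 at -2.68 (adjusted p = 0.0856). Nr4a1 also lost its call without Control week 19 library 2 (-2.21, adjusted p = 0.0578) or library 3 (-2.47, adjusted p = 0.0535), 2 libraries that were high for nearly all of the 10 genes. Fos (-1.94) and Egr1 (-1.88) had larger log2 fold changes than Jun and adjusted p of 0.202 and 0.214. Summed markers of other cells also moved with this comparison, from 234 to 326 FPKM in the controls to 681 to 692 FPKM in HF week 3 for fibroblasts and from 257 to 327 FPKM to 408 to 517 FPKM for endothelial cells. For smooth muscle the sums were 69.8 to 99.2 FPKM in the controls and 147 to 185 FPKM in HF week 3, and for macrophages 182 to 329 FPKM and 367 to 388 FPKM, with Cd68 at 0 in library 1. The sum of 5 atrial markers was 7737 and 14050.1 FPKM in HF week 3, with Nppa and Bmp10 at 0 in both libraries. The sum of 8 cardiomyocyte markers, without Myh6, was lower, at 20,482 to 24,186 FPKM against 28,804 to 31,897 FPKM in the controls. The part of these cells in the values of Dusp1, Nr4a1 and Jun was not tested.

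Atf3 was not among the genes called lower at HF week 3. At HF week 3 it was at 10.5 and 3.84 FPKM, with a log2 fold change of -0.08 from Control week 19 (adjusted p = 0.896), and it was lower than at HF week 5 by a log2 fold change of -1.63 ± 0.50 (limma, adjusted p = 0.0290). This was the 1 call of 10 between the HF time points, against 21.4% of all genes in either direction and 13.1% called lower, and 1 of 10 passed at the unadjusted p against 39.1%. Fosb, Jun, Nr4a1 and Dusp1 were the 4 without overlap, all lower at week 3, against 16% of all genes lower and 27.5% in either direction. The call of Atf3 was lost without either library of HF week 3 (adjusted p = 0.0674 without library 1 and 0.183 without library 2) and without HF week 5 library 1 (0.0756) or 3 (0.0913). The fibroblast sum was 681 to 692 FPKM in HF week 3 and 330 to 646 FPKM in HF week 5, and its part in this value was not tested. At Recovery week 7, after 2 weeks without the agents, Atf3 was at 7.11 and 5.72 FPKM and fell by 1.63 ± 0.50 from HF week 5 (adjusted p = 0.0336), the 1 call of 10 against 14.8% of all genes and 6.75% called lower, and the 1 gene at the unadjusted p against 29.8%. It lost this call without either Recovery week 7 library (0.115 without library 1 and 0.198 without library 2) and without HF week 5 library 1 (0.141) or 3 (0.0985). In that comparison 5 of the 10 genes were without overlap, 3 higher (Jun, Nr4a1 and Dusp1) and 2 lower (Egr3 and Atf3) at Recovery week 7, against 50.4% of all genes. Marker sums were lower at Recovery week 7 too, at 249 to 274 FPKM against 369 to 475 FPKM for endothelial cells, 73.2 to 74.1 FPKM against 135 to 227 FPKM for smooth muscle and 159 to 196 FPKM against 234 to 430 FPKM for macrophages. Those of neutrophils, at 2.14 to 2.46 FPKM against 9.30 to 63.2 FPKM, and of atrial genes, at 379 to 662 FPKM against 2229 FPKM or more, were also lower. The fibroblast sums, 251 to 331 FPKM against 330 to 646 FPKM, overlapped at their edges. Their part in the value of Atf3 was not tested.

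The intermediate recovery weeks gave 0 calls against Control week 19 in limma for any of the 10 genes. The shares of all genes called were 0.047% at week 7, 0.0549% at week 9, 0.149% at week 11 and 0.0784% at week 13. At the unadjusted p the counts were 0, 0, 0 and 1 of 10, against 3.61%, 3.6%, 8.45% and 10.4% of all genes. The 1 gene was Jun at week 13, with 19.6 and 17.0 FPKM and a log2 fold change of -0.70 (adjusted p = 0.471). Atf3 at that week was at 14.9 and 12.4 FPKM, with a log2 fold change of 0.95 (adjusted p = 0.479). Egr1 had log2 fold changes of -2.46 at week 9, -2.18 at week 11 and -2.17 at week 13, with adjusted p of 1, 0.607 and 0.553. Its 2 libraries of week 9, at 3.44 and 3.39 FPKM, were below every control library, the lowest of which was at 4.10 FPKM, and it was the 1 gene of 10 without overlap at that week, against 15.2% of all genes. At weeks 7, 11 and 13 there were 0 of 10 without overlap, against 15.6%, 9.96% and 26.8% of all genes.

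Over all 8 groups at once, limma's F test called Atf3 (adjusted p = 0.0242) and none of the other 9 genes, against 38.6% of all genes. Jun was next at 0.05003 and Dusp1 at 0.129, and the remaining 7 were at 0.188 to 0.855. Fos, which had the widest spread, was at 0.814.

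Other genes of the same response behaved unevenly in HF week 5 against Control week 19. Of 16 other immediate-early transcription factors tested, 0 were higher and 1 was lower, Nr4a3, a relative of Nr4a1, which fell by 1.26 ± 0.30 (SE) on the log2 scale (limma, adjusted p = 0.00530). This was 1 of 16, against 24% of all genes called. The median of that list was -0.38 against 0.04 over all genes. Nr4a3 was near the floor, at 0.064 ± 0.063 FPKM (SD, n = 3) in HF week 5, with a lowest value of 0. In Control week 19 it was at 0.914 ± 0.491 FPKM (SD, n = 5), so that its fold change depends on the pseudocount. Of 28 other immediate-early response genes, 2 were higher and 2 lower, or 4 in all against the same 24%. The growth-arrest gene Gadd45g rose by 1.37 ± 0.38 and the kinase gene Plk2 rose by 1.13 ± 0.21, while Sgk1, a kinase induced by corticosteroids, fell by 0.73 ± 0.20 and the small GTPase gene Rhob fell by 0.61 ± 0.18. Gadd45g was at 57.9 ± 24.4 FPKM (SD, n = 3) in HF week 5, 21.4 ± 4.81 (SD, n = 5) in Control week 19 and 21.4 ± 6.31 (SD, n = 5) in Recovery week 19. Gadd45g, Plk2, Sgk1, Rhob and Nr4a3 were each called in the opposite direction in Recovery week 19 against HF week 5, with the same HF libraries in both comparisons.

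Of 21 genes tested that act before the immediate-early genes, 2 rose and 5 fell in HF week 5 against Control week 19, beside 24% of all genes called. Agtr1a, the angiotensin II receptor type 1a, fell by 1.08 ± 0.23 (SE) on the log2 scale, from 12.5 ± 2.12 (SD, n = 5) to 5.83 ± 2.10 FPKM (SD, n = 3). Map2k1, which encodes the kinase MEK1, fell by 0.87 ± 0.19, and Atf1, a factor that binds the CRE, fell by 0.83 ± 0.14. Elk3 and Elk4, partners of serum response factor, rose by 0.78 ± 0.16 and 0.71 ± 0.18. Each of these had an adjusted p of 0.00812 or less in limma. In Recovery week 19 against HF week 5 the list had 5 higher and 2 lower, beside 24.2% of all genes called.

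Of 13 partners and repressors of AP-1, 1 rose, the basic leucine zipper gene Batf3, by 1.00 ± 0.36 (SE) on the log2 scale (limma, adjusted p = 0.0477), with overlap between the groups, beside 24% of all genes called. Of 8 glucocorticoid response genes, 3 fell in HF week 5: Zbtb16 by 1.95 ± 0.38, Klf9 by 1.42 ± 0.36 and Sgk1, which is also on a list above, beside the same 24%. Their medians were -0.07 for the AP-1 partners and -0.61 for the glucocorticoid list, against 0.04 over all genes. Of the 8 heat shock genes, 0 were called in HF week 5 against Control week 19, with 2 at an unadjusted p under 0.05, against 24% and 36.5% of all genes. In Recovery week 19 against Control week 19, 0 genes were called on any of the 6 lists, against 0.0235% of all genes, and at the unadjusted p there were 1 of 28 other response genes, 1 of 8 glucocorticoid genes and 0 on the other lists, against 2.88% of all genes.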

How the data were processed

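RNA was poly(A) selected and sequenced in pairs; the authors aligned reads to the mouse genome (mm9) with TopHat2 and computed expression with Cuffdiff, and the deposited values are FPKM per gene symbol and library. The annotation and any scaling between libraries are not given in the sources used here. The week in a column's name gave its group, and no column is linked to an animal. There were 5 single-sample columns left out, since they are named as week 5 controls while 4 samples have that label. Control week 19 replaced them, and the planned comparisons with Control week 5 were not run. Recovery week 9 has 2 columns for 3 labelled samples.

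A mean of 0.5 FPKM or more was required of a gene. Values were analysed as log2(FPKM + 0.5) in limma 3.58.1 (R 4.3.3), with a mean for each of 8 groups, 16 residual degrees of freedom and eBayes with a trend. Tests were two-sided, and a gene was called at a Benjamini-Hochberg adjusted p under 0.05 over all 12,759 genes tested. Absolute depth is unknown, and with it the counting error. Low values in steps of 1 fragment gave a relative depth of 0.727 to 1.39 over 23 libraries. No pair of libraries in a group was a copy: over genes of at least 20 FPKM the log2 difference within the 30 pairs had a median absolute deviation of 0.10 to 0.76. The test was first tested on simulated data.

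The 10 genes and the lists beside them were chosen with earlier results of these data known. All 10 are named. Of the 6 lists, named are the genes called in HF week 5 against Control week 19 or in Recovery week 19 against HF week 5, at most the 6 largest in each, and the 10 genes most like the mean of the immediate-early genes by Pearson's r. The result of 1 listed gene is not reported here. Promoters were searched with Python 3.11.15, and figures were drawn with matplotlib 3.10.9. Alternatives were pseudocounts of 0.1 and 1, no filter, a minimum mean of 1 FPKM, unadjusted p, only the groups compared, median centring, quantile normalization, and fits without the HF week 3 libraries or without each library in turn.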

Additional observations from a re-analysis of the deposited data

How the results depend on the processing

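Atf3 was called in Recovery week 19 against HF week 5 under every alternative. In HF week 5 against Control week 19 it lost its call without HF week 5 library 1 or 3, which left 0 of the 10 genes called. The count was 2 with the 2 groups alone in the fit and without Control week 19 library 5 (Atf3 and Jun), and 3 at the unadjusted p. In Recovery week 19 against HF week 5 the count was 1 to 2 on leaving out a library, with Jun added without recovery library 3 or 5, and 2 with median centring or the unadjusted p. In HF week 3 against Control week 19 it was 1 to 3 on leaving out a library, and Nr4a1 lost its call without either HF week 3 library, without Control week 19 library 2 or 3, with no filter and with the 2 groups alone. Between HF week 3 and HF week 5, and between Recovery week 7 and HF week 5, the count was 0 to 1 on leaving out a library and 0 with no filter and with the 2 groups alone. Recovery week 13 against Control week 19 gave 1 at the unadjusted p. The F test over all groups gave 0 without HF week 5 library 1 or 3 and with no filter, and 2 without Control week 19 library 5 or Recovery week 19 library 2, 3 or 5, with a minimum mean of 1 FPKM, median centring, quantile normalization or the unadjusted p (Atf3 and Jun). The cause of these differences was not tested.

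The sign of small values turned on leaving out single libraries. In HF week 5 against Control week 19 the log2 fold change ranged from -1.42 to 0.10 for Fos, -0.91 to 0.10 for Junb and -0.32 to 0.33 for Ier2, which was also above 0, at 0.0023, under quantile normalization. In Recovery week 19 against HF week 5 the ranges were -0.38 to 1.16 for Fos, -0.17 to 0.58 for Fosb, -0.27 to 0.83 for Junb, -0.41 to 0.97 for Egr1, -0.45 to 0.54 for Egr3 and -0.042 to 1.12 for Nr4a1. In Recovery week 19 against Control week 19 they were -1.20 to 0.18 for Egr1 and -0.23 to 0.16 for Jun. None of these passed the test under an alternative. No scaling moved the median of all genes by over 0.1. No paired analysis was possible because the columns carry no replicate letter of the samples' titles. With absolute depth unknown, the lowest genes, Fosb and Egr3, have an error that could not be split into counting and other spread.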
